A study of Homo sapiens with 12 samples.

Results

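Aminoacyl-tRNA synthetases join each amino acid to its transfer RNA, the step that supplies the ribosome with charged tRNA. Human cells hold a cytosolic set (gene suffix 1) and a mitochondrial set (suffix 2), both encoded in the nucleus. The glutamate and proline activities of the cytosol lie in the joint gene EPRS1, cytosolic phenylalanine is charged by the FARSA and FARSB subunits, and GARS1 and KARS1 each serve both compartments. Several cytosolic enzymes sit together in a multisynthetase complex, and mitochondrial synthetases serve only the translation of the few respiratory chain proteins encoded by mitochondrial DNA. Transcription of many cytosolic synthetase genes is known to be raised by ATF4, the factor that responds to uncharged tRNA and to other stress.

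The 35 genes named here were chosen as the annotated synthetase symbols of both compartments, 19 cytosolic and 16 mitochondrial, out of 10907 genes bright enough to test. Each gene was read from the brightest of its probe sets, by the mean over the 12 arrays. A value was obtained for 32 members, 17 cytosolic and 15 mitochondrial, and all 32 passed the filter on low values. MARS1, QARS1 and TARS2 were found only on probe sets shared with another gene, so no value is given for them.

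The cells were HK-2, a human proximal tubule line that has been immortalised for culture. They were exposed for 24 h or 48 h to Nnm at low dose, a compound given by this label alone, or to vehicle for the same times. The 4 groups (Nnm 24 h, control 24 h, Nnm 48 h and control 48 h) hold 3 arrays each, labelled as biological replicates, and this small number of arrays limits the precision. The study asks which expression changes follow exposure to compounds that harm the kidney. Values are log2 expression values, and every change below is Nnm minus the vehicle control of the same time, so that a change of -1 means that the Nnm level was 50% of the control level. Levels of different genes are not compared, because each probe set has its own brightness.

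The arrays carry facts that touch all results. Along the first principal component (50.3% of the variance) the Nnm arrays of replicate 2 lay at -1.55 (24 h) and -3.28 (48 h), between the other Nnm arrays (-43.2 to -31.2) and the control arrays (18.6 to 34.4). The 5′ minus 3′ difference of ACTB, which follows RNA quality, ran between -1.17 and -1.09 on replicate 2 of all groups and between -0.86 and -0.74 on the other arrays. The same difference of GAPDH did not set replicate 2 apart, with 0.06 to 0.16 there and 0.03 to 0.16 on the other arrays. Of the 6 proximal tubule markers, DPP4 was high (log2 11.1 to 13.0) while LRP2, CUBN, ANPEP, GGT1 and AQP1 lay below the filter, and the epithelial markers KRT8, KRT18, EPCAM and CDH1 passed it. Of 5 fibroblast markers COL1A1, DCN and LUM passed the filter (DCN at 11.5 to 12.4) and COL1A2 and PDGFRB did not. The endothelial PECAM1 was faint (3.80 to 4.66), and CDH5, VWF, KDR, PTPRC, CD14 and CD3E were below the filter.

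Some of these markers moved with Nnm as the members did or the other way. DPP4 rose by 0.77 at 24 h and 1.19 at 48 h (limma, adjusted p = 0.022 and 0.00659). KRT8 had changes of -0.57 and -0.70 (adjusted p = 0.00549 and 0.00377 when fitted with replicate number as a blocking factor, called the block below) and fell by 0.63 for the mean of both times (limma, adjusted p = 0.0394). KRT18 had -0.46 and -0.26 and CDH1 had -0.29 at each time, with calls under the block alone, for KRT18 at 24 h and for the mean and for CDH1 for the mean. COL1A1 had -0.33 at 24 h and fell by 0.53 at 48 h (adjusted p = 0.0491), while LUM and PECAM1 had changes of 0.47 and 0.46 at 48 h (adjusted p = 0.0451 and 0.0274 with the block). The part of these shifts in the results was not tested.

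The sequences next to the start sites are shown first, because the members differ there by compartment and because the genes that fell at both times each share their start region with a neighbour. RefSeq promoters (250 bases before to 50 after the start, build GRCh38.p14) were found for 30 of the 35 members. AARS2, LARS1, VARS1, VARS2 and YARS1 had no entry. The core of the C/EBP-ATF response element through which ATF4 is known to act, TGATGNAA on either strand, was held by 3.62% of the 35116 promoters in the table and by 4.46% of its 27305 genes. It was held by 7 of 16 cytosolic members (AARS1, CARS1, GARS1, IARS1, MARS1, NARS1 and TARS1) and by 1 of 14 mitochondrial members (YARS2). Each match is printed on the gene's own strand in a 30-base window, with the core in capitals.
AARS1, chr16:70289675-70289704, minus strand: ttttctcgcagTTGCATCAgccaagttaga
CARS1, chr11:3057407-3057436, minus strand: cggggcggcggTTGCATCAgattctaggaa
GARS1, chr7:30594834-30594863, plus strand: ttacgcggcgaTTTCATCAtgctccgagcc
IARS1, chr9:92293692-92293721, minus strand: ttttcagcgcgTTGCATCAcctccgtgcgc
MARS1, chr12:57488053-57488082, plus strand: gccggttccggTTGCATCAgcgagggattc
NARS1, chr18:57621804-57621833, minus strand: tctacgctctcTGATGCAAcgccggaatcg
TARS1, chr5:33440956-33440985, plus strand: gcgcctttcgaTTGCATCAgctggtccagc
YARS2, chr12:32756076-32756105, minus strand: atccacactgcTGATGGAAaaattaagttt
The same 8 letters, TTGCATCA or its complement on the other strand, recur in 6 of the 7 cytosolic matches, and GARS1 has TTTCATCA. A match is a description of these letters and shows no binding.

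Other motifs were searched in the same windows on both strands. The palindromic nuclear respiratory factor 1 motif was held by 5.78% of all promoters and 6.98% of all genes. Of the 16 cytosolic members FARSB, SARS1 and TARS1 held it, and of the 14 mitochondrial members IARS2, MARS2 and PARS2. The ETS family motif CCGGAAGT (4.14% and 4.95%) was held by CARS1, HARS1, NARS1, TARS1 and WARS1 and by EARS2, HARS2 and PARS2. The E-box CACGTG (7.26% and 8.77%) was held by IARS1 and by CARS2, EARS2 and MARS2. A gene on the opposite strand started within 1000 bases, pointing away, at 10 of the 30 members and at 20.1% of all genes in the table. HARS1 and HARS2, the cytosolic and mitochondrial histidine enzymes, form such a pair with 85 bases between their starts. SARS2, the mitochondrial serine enzyme, starts 181 bases from MRPS12, a protein of the mitochondrial ribosome, and WARS1, the cytosolic tryptophan enzyme, starts 158 bases from WDR25. These 3 members are shown because they fell at both times. The bases between the starts are printed on the member's strand up to its start, with ETS matches in capitals.
HARS1 to HARS2, chr5:140691371-140691455, minus strand: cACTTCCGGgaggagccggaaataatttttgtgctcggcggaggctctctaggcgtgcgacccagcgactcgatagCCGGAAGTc
WARS1 to WDR25, chr14:100376328-100376485, minus strand: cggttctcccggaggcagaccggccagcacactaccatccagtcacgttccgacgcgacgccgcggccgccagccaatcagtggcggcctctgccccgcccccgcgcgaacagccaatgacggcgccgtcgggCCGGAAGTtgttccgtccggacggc
SARS2 to MRPS12, chr19:38930764-38930944, minus strand: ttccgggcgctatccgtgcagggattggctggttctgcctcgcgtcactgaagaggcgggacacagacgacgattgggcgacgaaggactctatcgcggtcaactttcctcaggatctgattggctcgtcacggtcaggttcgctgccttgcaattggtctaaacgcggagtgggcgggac
The HARS1 to HARS2 stretch holds 2 ETS matches, that of WARS1 holds 1, and that of SARS2 holds none.

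After 24 h with Nnm, 7 of the 32 measured members fell and 0 rose (limma, adjusted p under 0.05). The cytosolic genes were WARS1, HARS1, VARS1, FARSA and FARSB, and the mitochondrial genes were SARS2 and MARS2. Of all tested genes, 8.85% fell and 10.6% rose in that comparison, 19.4% in either direction. The 7 falls are 21.9% of the members, and 17 members passed an unadjusted p of 0.05, all with a negative change. Among all 10907 genes 3982 passed that unadjusted p at 24 h, 1911 of them with a negative change. After 48 h, 6 members fell and 0 rose, of which WARS1, HARS1, IARS1, NARS1 and EPRS1 are cytosolic and SARS2 is mitochondrial. In that comparison 5.34% of all genes fell and 8.45% rose, 13.8% in either direction. An unadjusted p of 0.05 was passed by 14 members at 48 h, all with a negative change. It was passed there by 3534 of the 10907 genes, 1510 of them with a negative change.

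WARS1, HARS1 and SARS2 fell at both times. These are 3 of 32 members, and 3.01% of all tested genes did the same. For the mean of the changes at both times, which rests on all 12 arrays, 19 members fell and 0 rose, against 16.9% of all genes that fell and 20.4% that rose, 37.3% in either direction. These are 11 of 17 cytosolic and 8 of 15 mitochondrial members, and 9 of the 19 did not pass at either time alone. When replicate number was added as a block, the falls numbered 16 at 24 h (18.8% of all genes), 16 at 48 h (13.7%) and 23 for the mean (24.6%). The rises numbered 0 in all 3 comparisons, where 20%, 18.5% and 28% of all genes rose with the block. In cultures measured as a whole, fewer cells of a kind and less RNA per cell cannot be told apart.

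**Figure D1:**
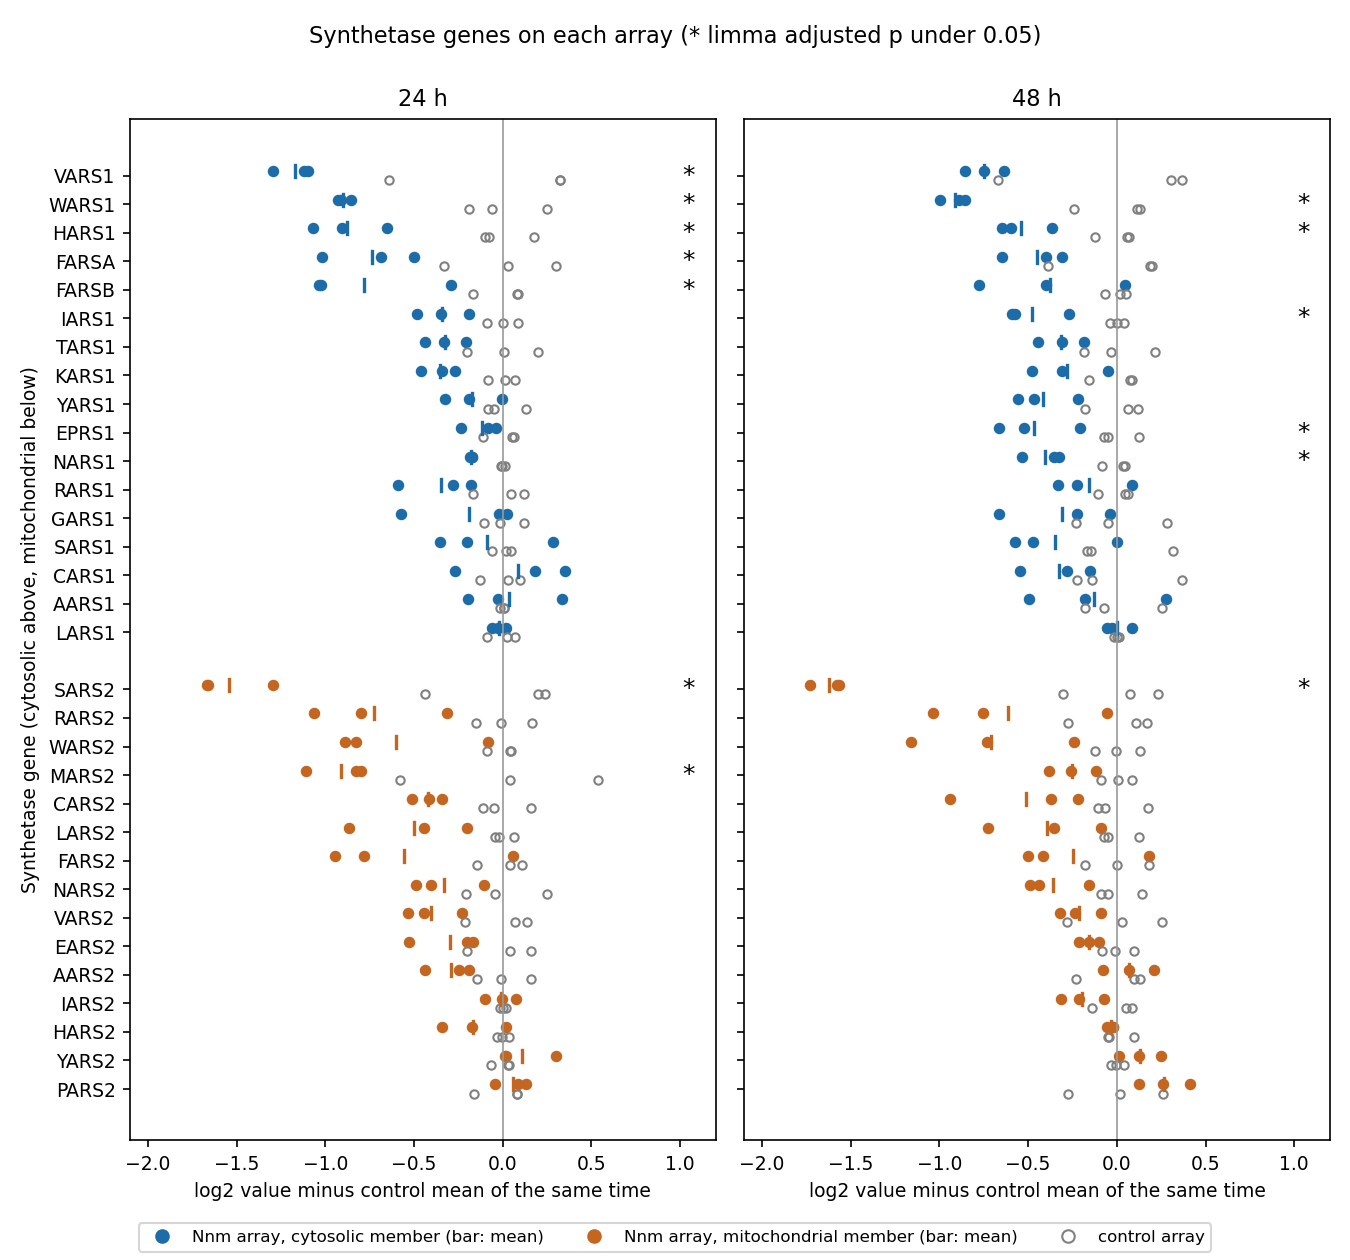
Each point is 1 array's log2 value of a member minus the mean of the 3 control arrays of the same time (filled, Nnm; open, control), the short bar is the Nnm mean, and an asterisk marks a limma adjusted p under 0.05 at that time. The Nnm means of 28 of the 32 members lie below 0 at each time, and SARS2 lies farthest to the left at both.

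The cytosolic members are taken first. WARS1 read 8.90, 8.96 and 8.88 on the Nnm arrays at 24 h, against 9.75, 9.62 and 10.06 on the control arrays (replicates 1 to 3). At 48 h it read 8.48, 8.62 and 8.58 with Nnm, against 9.60, 9.23 and 9.58 in control cells. The Nnm arrays lay close together at each time and all lay below every control array. The change was -0.90 ± 0.14 (SE) at 24 h and -0.92 ± 0.14 at 48 h (limma, adjusted p = 0.00612 and 0.00561), a level 46.4% and 47% lower. A further WARS1 probe set gave -0.76 and -0.71.

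HARS1 read 9.22, 9.64 and 9.38 with Nnm at 24 h, against 10.21, 10.19 and 10.47 in controls. At 48 h the values were 9.16, 9.44 and 9.21 with Nnm, against 9.69, 9.86 and 9.87 in controls. Replicate 2 was the highest of the Nnm arrays at both times, and the groups did not overlap. The changes were -0.88 ± 0.14 and -0.54 ± 0.14 (adjusted p = 0.00657 and 0.0295).

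VARS1, the valine enzyme, read 7.80, 7.60 and 7.77 with Nnm at 24 h, against 9.22, 8.25 and 9.22 in controls. On the 48 h arrays it read 7.77, 7.55 and 7.65 with Nnm, against 8.71, 7.73 and 8.77 in controls. The Nnm arrays were close together while the control array of replicate 2 lay far under the other controls. At 48 h it lay just below Nnm replicate 1, so that the groups overlapped there and not at 24 h. VARS1 fell by 1.17 at 24 h (SE 0.30, adjusted p = 0.0241). At 48 h its change was -0.75 with adjusted p = 0.114, and adjusted p = 0.0203 with the block. Its further probe set gave -1.16 and -1.42 and passed at both times (limma across probe sets, adjusted p = 0.0239 and 0.0165).

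FARSA and FARSB form the heterotetramer that charges phenylalanine in the cytosol. FARSA read 8.58, 8.06 and 8.39 with Nnm at 24 h, against 9.11, 8.75 and 9.38 in controls. FARSB read 9.79, 10.54 and 9.80 with Nnm at 24 h, against 10.66, 10.91 and 10.91 in controls. Neither pair of groups overlapped, but replicate 2 was the lowest Nnm array for FARSA and the highest for FARSB. They fell by 0.74 and 0.78 at 24 h (adjusted p = 0.0357 and 0.0386).

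At 48 h FARSA read 8.58, 8.24 and 8.49 with Nnm, against 9.09, 8.50 and 9.08 in controls, and FARSB read 9.87, 10.70 and 10.26 with Nnm, against 10.67, 10.70 and 10.59 in controls. Both subunits overlapped between the groups at that time. Their changes at 48 h were -0.45 (adjusted p = 0.167, 0.014 with the block) and -0.38 (adjusted p = 0.287). For the mean of both times FARSA fell by 0.59 and FARSB by 0.58 (adjusted p = 0.0115 and 0.018).

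Several members of the multisynthetase complex were measured. IARS1, the isoleucine enzyme, read 12.27, 12.57 and 12.41 with Nnm at 24 h, against 12.67, 12.76 and 12.84 in controls. The 48 h arrays read 12.12, 12.44 and 12.14 with Nnm, against 12.71, 12.76 and 12.67 in controls. The groups did not overlap at either time. Its changes were -0.34 at 24 h (adjusted p = 0.0642, 0.0206 with the block) and -0.48 at 48 h (adjusted p = 0.0266).

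EPRS1 charges both glutamate and proline. It read 11.17, 11.33 and 11.38 with Nnm at 24 h, against 11.30, 11.46 and 11.47 in controls, and the groups overlapped. At 48 h it read 10.94, 11.26 and 10.80 with Nnm, against 11.39, 11.59 and 11.42 in controls, with no overlap. EPRS1 fell by 0.47 at 48 h (SE 0.13, adjusted p = 0.0402), and its change at 24 h was -0.12 (adjusted p = 0.546).

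KARS1 charges lysine in both compartments. It read 12.74, 12.94 and 12.86 with Nnm at 24 h, against 13.12, 13.22 and 13.27 in controls, and 12.70, 12.95 and 12.52 with Nnm at 48 h, against 12.85, 13.09 and 13.08 in controls. The groups were apart at 24 h and overlapped at 48 h. Its changes were -0.36 and -0.28 (adjusted p = 0.0706 and 0.154), the first passing with the block (adjusted p = 0.026), and it fell by 0.32 for the mean of both times (adjusted p = 0.0184). A further KARS1 probe set had -0.48 and -0.39 (limma across probe sets, adjusted p = 0.0248 and 0.0572). The other complex members with a value, RARS1 (arginine) and LARS1 (leucine), passed in none of these tests. RARS1 had changes of -0.35 and -0.16 (adjusted p = 0.113 and 0.498, with adjusted p = 0.0197 at 24 h under the block). LARS1 had -0.02 and 0.00 on its brightest probe set, and its 4 probe sets had mixed signs at both times. Of the 5 complex members 0 fell at 24 h and 2 fell at 48 h, and of the 12 other cytosolic members 5 and 3 fell. The shares of all tested genes that fell were 8.85% at 24 h and 5.34% at 48 h, and these groups were not tested against each other. AIMP1, a scaffold of the complex, had changes of 0.06 and 0.36 and passed at 48 h with the block alone (adjusted p = 0.0392).

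NARS1, the asparagine enzyme, had close replicates at 24 h. It read 12.34, 12.33 and 12.34 with Nnm at 24 h, against 12.52, 12.51 and 12.51 in controls. The 48 h values were 12.25, 12.28 and 12.07 with Nnm, against 12.65, 12.64 and 12.52 in controls. No Nnm array reached a control array at either time. The change was -0.18 at 24 h (adjusted p = 0.184) and -0.40 at 48 h (adjusted p = 0.0191), where NARS1 fell to a level 24.5% lower.

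TARS1, the threonine enzyme, read 11.50, 11.27 and 11.38 with Nnm at 24 h, against 11.71, 11.50 and 11.91 in controls. The 48 h arrays gave 11.35, 11.09 and 11.22 with Nnm, against 11.75, 11.35 and 11.50 in controls. The highest Nnm array lay just under the lowest control array at both times. Its changes were -0.32 and -0.31 (adjusted p = 0.123 and 0.153, with adjusted p = 0.0276 and 0.036 under the block), and it fell by 0.32 for the mean of both times (adjusted p = 0.0288). YARS1, the tyrosine enzyme, had changes of -0.17 and -0.41 and fell by 0.29 for the mean (adjusted p = 0.0317), while its further, faint probe set had changes above 0. With the block YARS1 also passed at 48 h (adjusted p = 0.0279).

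AARS1 (alanine), CARS1 (cysteine), GARS1 (glycine) and SARS1 (serine) did not pass in any of these tests. Their changes at 24 h lay between -0.19 and 0.09 and at 48 h between -0.35 and -0.13, with wide spread among the Nnm arrays. With the block SARS1 passed at 48 h (-0.35, adjusted p = 0.0452), and GARS1, RARS1 and SARS1 passed for the mean of both times (adjusted p = 0.033, 0.0116 and 0.0459).

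**Figure D2:**
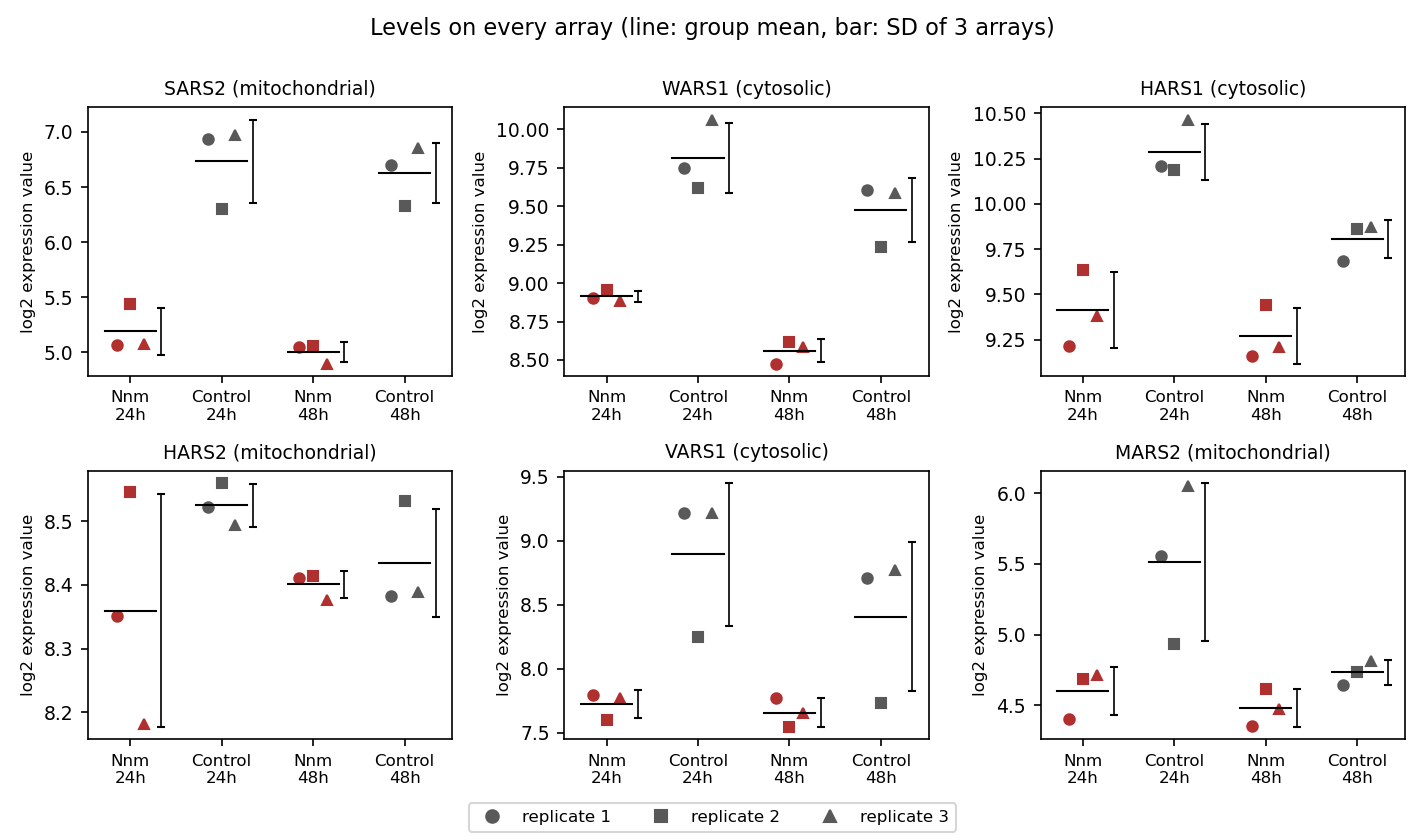
Log2 expression values on all 12 arrays for 6 members, with marker shape giving the replicate number, the line the group mean and the bar the SD of 3 arrays. SARS2, WARS1 and HARS1 show no overlap between Nnm and control arrays at either time, HARS2 overlaps at both, VARS1 has a low control array of replicate 2, and MARS2 lies near the filter of 4. Vertical axes differ between panels.

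Among the mitochondrial members SARS2 changed most. It read 5.07, 5.44 and 5.07 with Nnm at 24 h, against 6.93, 6.30 and 6.97 in controls, and at 48 h it read 5.05, 5.06 and 4.90 with Nnm, against 6.70, 6.32 and 6.86 in controls. All Nnm arrays lay far under every control array of their time. SARS2 fell by 1.54 at 24 h and by 1.63 at 48 h (SE 0.20 each, adjusted p = 0.00496 and 0.00286), to a level 65.7% and 67.6% lower. Its signal was low, and the gene had 1 probe set.

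MARS2, the mitochondrial methionine enzyme, read 4.41, 4.69 and 4.72 with Nnm at 24 h, against 5.56, 4.94 and 6.05 in controls. On the 48 h arrays it read 4.35, 4.62 and 4.47 with Nnm, against 4.64, 4.74 and 4.82 in controls. The 24 h control arrays were widely spread and higher than the control arrays of 48 h, and all Nnm arrays lay near the filter of 4. MARS2 fell by 0.91 at 24 h (SE 0.23, adjusted p = 0.0224), and its change at 48 h was -0.25 (adjusted p = 0.479).

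RARS2, the mitochondrial arginine enzyme, read 9.42, 10.17 and 9.69 with Nnm at 24 h, against 10.33, 10.65 and 10.47 in controls. Its 48 h values were 9.39, 10.36 and 9.67 with Nnm, against 10.15, 10.59 and 10.53 in controls. The Nnm array of replicate 2 was far above the other Nnm arrays and passed the lowest control array at 48 h. The changes were -0.73 and -0.62 (adjusted p = 0.0689 and 0.126, with adjusted p = 0.00537 and 0.0112 under the block), and RARS2 fell by 0.67 for the mean of both times (adjusted p = 0.0155). A further RARS2 probe set, nearly as bright, had -0.76 and -0.71 (limma across probe sets, adjusted p = 0.04355 and 0.0653). A faint one had -0.45 and -0.58 and passed at neither time.

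WARS2, which charges tryptophan in mitochondria, showed a like spread. It read 7.51, 8.31 and 7.57 with Nnm at 24 h, against 8.31, 8.44 and 8.44 in controls, and 7.80, 8.29 and 7.37 with Nnm at 48 h, against 8.52, 8.66 and 8.41 in controls. Replicate 2 stood close to the controls in both Nnm groups. WARS2 had changes of -0.60 and -0.71 (adjusted p = 0.103 and 0.074, with adjusted p = 0.0257 and 0.0167 under the block) and fell by 0.66 for the mean (adjusted p = 0.014).

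LARS2, the mitochondrial leucine enzyme, read 7.87, 8.53 and 8.29 with Nnm at 24 h, against 8.69, 8.79 and 8.71 in controls. The 48 h arrays gave 7.92, 8.55 and 8.29 with Nnm, against 8.60, 8.77 and 8.57 in controls. The groups did not overlap, and replicate 2 was again the highest Nnm array. Its changes were -0.50 and -0.39 (adjusted p = 0.0792 and 0.172, with adjusted p = 0.0145 and 0.0409 under the block), and it fell by 0.45 for the mean (adjusted p = 0.022).

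CARS2, the mitochondrial cysteine enzyme, read 7.21, 7.28 and 7.12 with Nnm at 24 h, against 7.52, 7.58 and 7.79 in controls. Its values at 48 h were 6.43, 7.15 and 7.00 with Nnm, against 7.55, 7.27 and 7.30 in controls. The groups were apart at both times. CARS2 had changes of -0.42 and -0.51 (adjusted p = 0.105 and 0.0725) and fell by 0.47 for the mean of both times (adjusted p = 0.0139). With the block the adjusted p at 48 h was 0.04996.

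NARS2 (asparagine) and VARS2 (valine) complete the 8 mitochondrial genes that fell for the mean. NARS2 read 8.84, 9.23 and 8.93 with Nnm at 24 h, against 9.13, 9.58 and 9.29 in controls, and 8.68, 9.01 and 8.73 with Nnm at 48 h, against 9.08, 9.12 and 9.31 in controls. VARS2 read 8.59, 8.80 and 8.49 with Nnm at 24 h, against 8.82, 9.10 and 9.17 in controls, and 8.46, 8.69 and 8.54 with Nnm at 48 h, against 8.50, 8.81 and 9.03 in controls. NARS2 overlapped at 24 h and VARS2 at 48 h. They fell by 0.35 and 0.31 for the mean (adjusted p = 0.0284 and 0.0457). With the block NARS2 passed at 24 h and at 48 h (adjusted p = 0.0383 and 0.0341), and VARS2 passed at 24 h (adjusted p = 0.0283).

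AARS2, EARS2, FARS2, HARS2, IARS2, PARS2 and YARS2 did not pass in any of these tests. Their changes lay between -0.56 (FARS2) and 0.11 (YARS2) at 24 h and between -0.25 (FARS2) and 0.27 (PARS2) at 48 h. PARS2, the proline enzyme, and YARS2, the tyrosine enzyme, were the mitochondrial members with a change above 0 at both times. FARS2 passed for the mean of both times with the block alone (-0.40, adjusted p = 0.0439). EARS2, the glutamate enzyme, had -0.30 and -0.16 on its brightest probe set, but a dimmer probe set of the gene had -1.36 and -1.09 (limma across probe sets, adjusted p = 0.00853 and 0.0155).

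As groups, the 17 cytosolic members had a median change of -0.32 at 24 h and -0.38 at 48 h. The 15 mitochondrial members had medians of -0.40 and -0.25. The median over all 10907 genes was 0.01 and 0.02. At each time 28 of 32 members, 87.5%, had a change below 0, against 48.7% and 47.9% of all genes. All Nnm values lay below all control values in 17 members at 24 h and 14 at 48 h, where 18.7% and 15.8% of all genes did so, and they lay above them in 0 members, where 21.1% and 20.3% of all genes did. They lay below at both times in 9 members and in 9.73% of genes. The cytosolic minus mitochondrial difference of the medians was 0.08 at 24 h and -0.13 at 48 h. The SD of that difference between the 3 Nnm arrays was 0.178 and 0.215. It describes the spread of single Nnm arrays, not the error of a group value, and leaves out the control arrays. It is therefore no test of a difference between the classes.

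**Figure D3:**
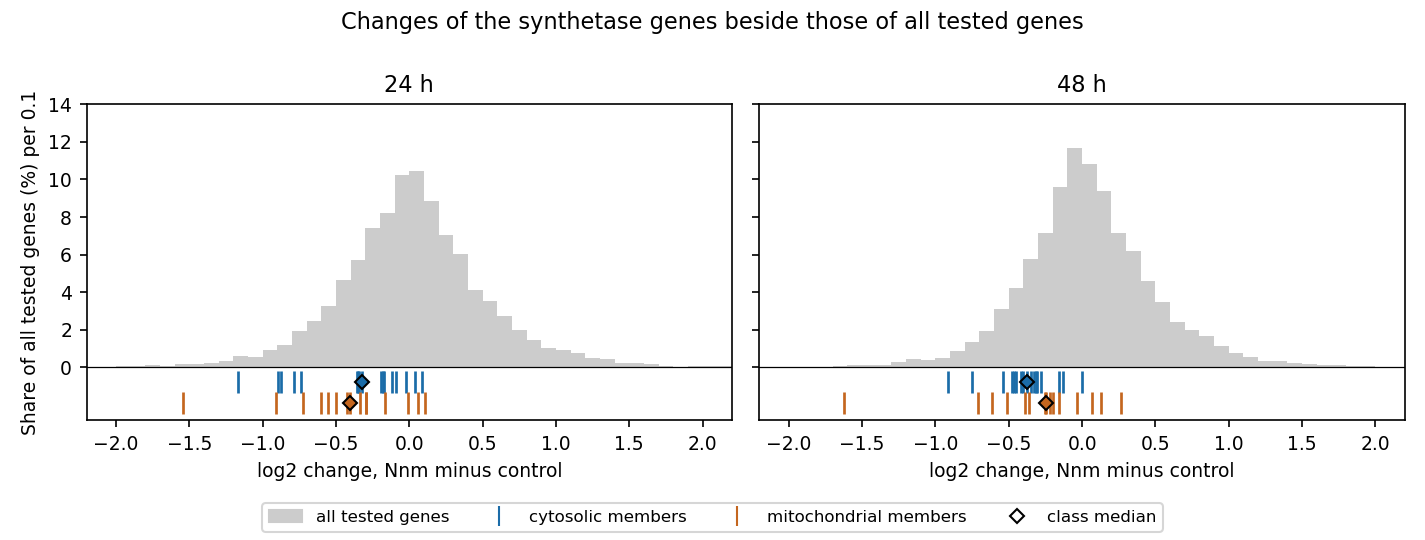
Grey bars give the share of all 10907 tested genes in each step of 0.1 in log2 change (Nnm minus control), ticks below them give the single cytosolic and mitochondrial members, and diamonds give the class medians. The tick rows of both classes lie mostly left of 0 at both times, with medians of -0.32 and -0.40 at 24 h and -0.38 and -0.25 at 48 h. All-gene changes beyond 2.2 in either direction are not drawn.

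The Nnm arrays of replicate 2 stood apart from the others in the mitochondrial members. Averaged over the cytosolic members, the distance from the control mean was -0.34, -0.42 and -0.38 on the 3 Nnm arrays at 24 h and -0.34, -0.40 and -0.44 at 48 h (replicates 1 to 3), against -0.10 to 0.12 on the control arrays. Averaged over the mitochondrial members it was -0.58, -0.22 and -0.52 at 24 h and -0.43, -0.14 and -0.40 at 48 h, against -0.04 to 0.05 on control arrays. Replicate 2 was the highest Nnm array in 12 and 13 of the 15 mitochondrial members. Among the 17 cytosolic members it was the highest in 6 and 8 and the lowest in 10 and 9. The same count was not made over all tested genes, so it is not shown to be particular to the mitochondrial members. With each Nnm array set against the control array of its own number, the mitochondrial mean was -0.56, -0.18 and -0.57 at 24 h and -0.39, -0.14 and -0.44 at 48 h. The cytosolic mean was then -0.31, -0.34 and -0.50 at 24 h and -0.44, -0.29 and -0.44 at 48 h, so that at 48 h replicate 2 had the smallest difference from its control in both classes. No test was made between the classes. The part of RNA quality and of the place of these arrays on the first principal component in these values was not tested. Without both Nnm arrays of replicate 2, 15 members fell at 24 h and 14 at 48 h, and so did 15.9% and 12.5% of all genes.

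**Figure D4:**
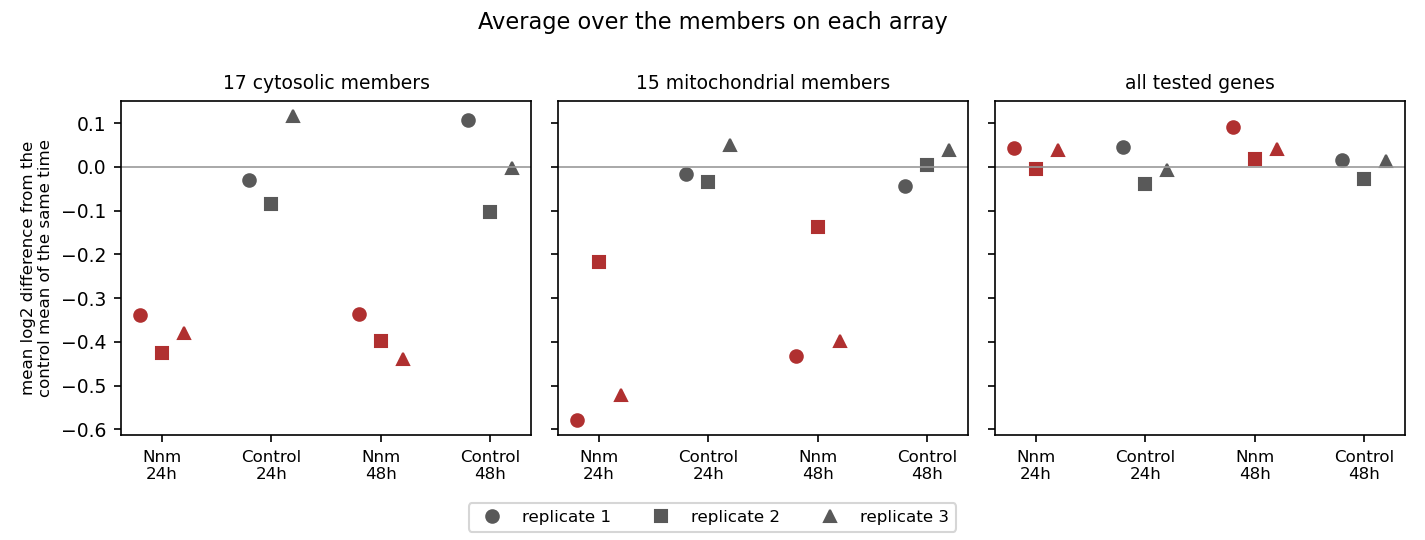
Mean log2 difference from the control mean of the same time on each array, over 17 cytosolic members, 15 mitochondrial members and all tested genes. The Nnm arrays of the cytosolic panel lie between -0.44 and -0.34, and those of the mitochondrial panel spread from -0.58 to -0.14 with replicate 2 on top at both times.

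Synthetases for the same amino acid could be set side by side in 15 pairs, in which the difference of each array's cytosolic and mitochondrial value was compared between Nnm and control arrays without a test. The cytosolic change was the lower in 8 pairs at 24 h and in 11 at 48 h. The Nnm and control arrays were apart in 6 pairs at 24 h, 2 with the cytosolic and 4 with the mitochondrial enzyme lower, and in 6 pairs at 48 h, 5 and 1. At both times the same 3 pairs were apart the same way. EPRS1 (with EARS2 and PARS2) and FARS2 (with FARSA and FARSB) enter more than once, so the pairs are not separate. No share over other gene pairs was counted. Among single genes, all Nnm values lay below the controls in 18.7% and above them in 21.1% at 24 h. At 48 h these shares were 15.8% and 20.3%.

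HARS1 and HARS2 form the first of these pairs, and they share the 85 bases printed above. HARS1 had changes of -0.88 and -0.54, while HARS2 had -0.17 and -0.03. HARS2 read 8.35, 8.55 and 8.18 with Nnm at 24 h, against 8.52, 8.56 and 8.49 in controls, and its groups overlapped at both times. The IARS1 change was 0.33 lower than that of IARS2 at 24 h and 0.28 lower at 48 h. Serine was the opposite case. The change of SARS1 exceeded that of SARS2 by 1.45 at 24 h and by 1.28 at 48 h.

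Other pairs were apart at 1 time. At 24 h CARS1, LARS1 and RARS1 had changes of 0.09, -0.02 and -0.35, while CARS2, LARS2 and RARS2 had -0.42, -0.50 and -0.73. At 48 h EPRS1 had a change of -0.47, while PARS2 had 0.27 and EARS2 had -0.16, and YARS1 had -0.41 while YARS2 had 0.13. Valine and tryptophan enzymes overlapped at both times, with both members of each pair below 0.

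**Figure D5:**
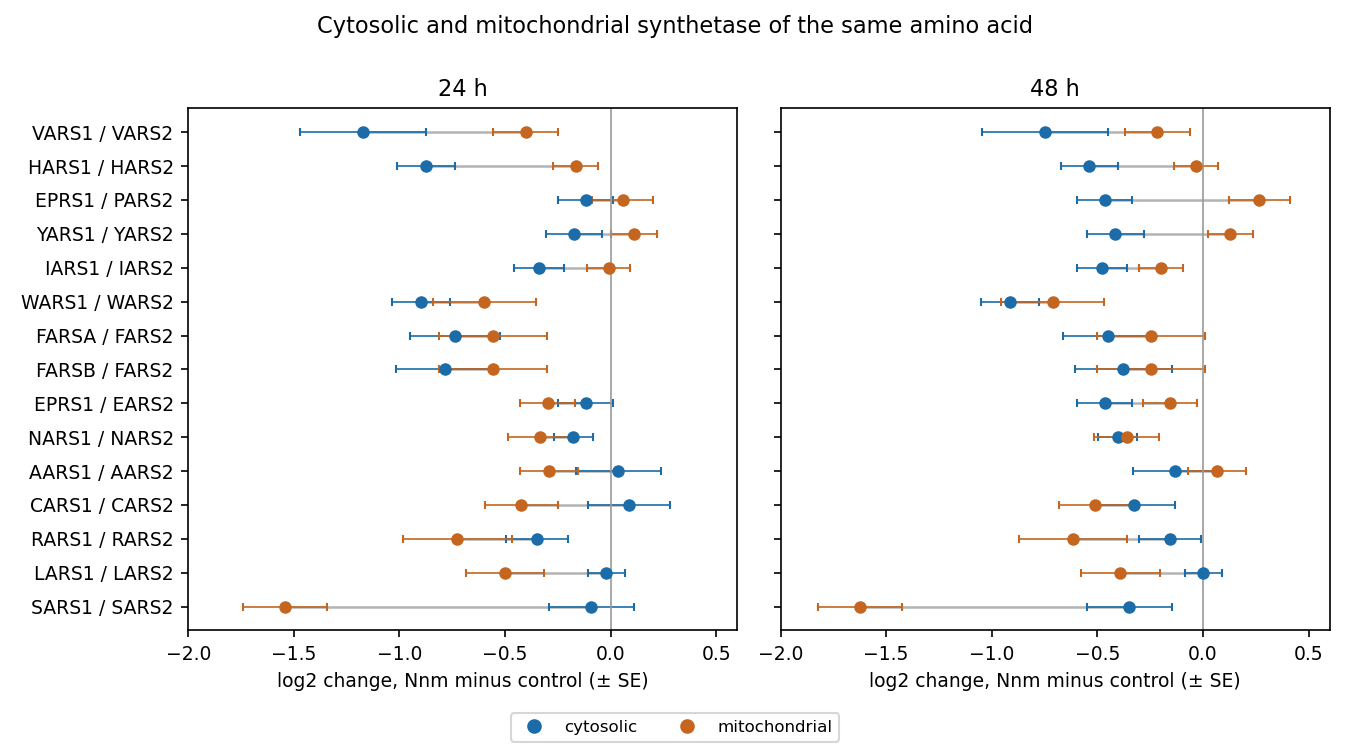
Log2 change (Nnm minus control, bar: limma SE) of the cytosolic and the mitochondrial enzyme for the same amino acid, ordered by their mean difference over both times. Serine stands at the bottom with SARS2 at -1.54 and -1.63 far left of SARS1, and valine and histidine stand at the top with the cytosolic enzyme farther left.

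The promoter groups were described in the same way. The 6 measured cytosolic members with the C/EBP-ATF core had a median change of -0.18 at 24 h and -0.32 at 48 h, and 0 and 2 of them fell (IARS1 and NARS1). The 8 measured cytosolic members without it had medians of -0.55 and -0.41, and 4 and 3 of them fell. Of all tested genes 8.85% and 5.34% fell. VARS1, LARS1 and YARS1 had no promoter entry and stand in neither group. Their changes were -1.17, -0.02 and -0.17 at 24 h and -0.75, 0.00 and -0.41 at 48 h. These groups were formed from sequence alone and no test was made between them.

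The neighbours that start next to a member showed changes in mixed directions. MRPS12, next to SARS2, fell by 0.57 at each time (limma, adjusted p = 0.0357 and 0.0437). WDR25, next to WARS1, had changes of -0.01 and -0.11 and did not pass. It lay near the filter of 4 on all arrays (4.06 to 4.65), where a fall could hardly be seen. TERF2IP, next to KARS1, had 0.48 and 0.18 and rose by 0.33 for the mean of both times (adjusted p = 0.0447), and it passed at 24 h with the block (adjusted p = 0.0206). ORC3, next to RARS2, had 0.06 and 0.27 and passed at 48 h with the block alone (adjusted p = 0.049). LYRM4, next to FARS2, had -0.26 and 0.02, and UBFD1, next to EARS2, had -0.01 and -0.08. Neither of them passed.

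By catalytic fold, which divides synthetases into class I and class II, 3 of 16 class I members fell at 24 h and 2 at 48 h, with medians of -0.38 and -0.36. Of 15 class II members 4 and 3 fell, with medians of -0.32 and -0.31. The shares of all tested genes that fell were 8.85% and 5.34%, and no test was made between the folds. EPRS1 joins both folds and was left out of this count.

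Few calls were made between the times. The difference between the Nnm changes at 48 h and at 24 h passed in limma for 0 of 32 members and for 0% of all genes. An unadjusted p under 0.05 was reached there by 0 members and by 698 of all 10907 genes. Between control 48 h and control 24 h 0 members passed, where 0.128% of all genes did, and 4 had an unadjusted p under 0.05 (HARS1, MARS2, WARS1 and AARS2), all lower at 48 h. Among the 10907 genes 1711 had such a p between the control times, 947 of them lower at 48 h. HARS1 was 0.48 lower in control cells at 48 h than at 24 h, which passed with the block (adjusted p = 0.0334), as did 4.6% of all genes in that direction. Between Nnm 48 h and Nnm 24 h 0 members passed (0.119% of all genes) and WARS1 and EPRS1 had an unadjusted p under 0.05, both lower at 48 h. Such a p was found there for 1176 of the 10907 genes, 565 of them lower at 48 h.

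Genes that act beside the synthetases moved in mixed directions, against the same shares of all genes as above. The mitochondrial translation factors had the most calls. Of 8 tested, 3 rose and 5 fell at 24 h, and 1 rose and 3 fell at 48 h. The elongation factors TUFM and GFM1 fell by 0.71 and 0.87 at 24 h and by 0.67 and 0.83 at 48 h, and TSFM, which recycles TUFM, fell by 0.53 and 0.45. The release factor MTRF1 rose by 1.06 and 0.65. With the block 2 rose and 4 fell at 48 h, MTIF2 and MTRF1L being added. Of 7 genes for maturation of mitochondrial tRNA, 3 fell at 24 h (TRNT1, which adds the CCA end, fell by 1.23, TRMT10C fell by 0.80 and ELAC2 fell by 0.42) and 1 fell at 48 h (TRMU by 0.74). With the block 5 fell and 1 rose at 24 h, and 3 fell at 48 h, where TRNT1 had -0.75 and TRMT10C had -0.43 (adjusted p = 0.0174 and 0.0326). Mitochondria make glutaminyl-tRNA by amidation and formylate the initiator. In that list of 4 genes MTFMT and GATB fell by 0.87 and 0.65 at 24 h, QRSL1 rose by 0.35, and 0 passed at 48 h. With the block GATC also passed at 24 h (-0.50, adjusted p = 0.0218) and GATB at 48 h (-0.46, adjusted p = 0.0365).

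Sensors of uncharged tRNA were split. EIF2AK4, the kinase GCN2, rose by 0.63 and 0.71, and its partner GCN1 fell by 0.73 and 0.69. Of the other 4 genes tested, EIF2S1, the alpha subunit of the factor that GCN2 phosphorylates, fell by 0.30 for the mean of both times (adjusted p = 0.0327) and passed at 24 h with the block (-0.42, adjusted p = 0.00651). Of 18 ATF4 and amino acid response genes 0 rose at either time, 1 fell at 24 h and 3 at 48 h, and the list median was 0.23 and -0.10. PYCR1 fell at both times (-0.76 and -0.99), while ASNS, the asparagine synthetase, had 0.98 and 0.15 (adjusted p = 0.119 and 0.845, with adjusted p = 0.0335 at 24 h under the block). With the block 4 genes of that list (ATF4, ASNS, DDIT4 and PHGDH) rose at 24 h and 2 fell. Of 8 amino acid transporters SLC7A11 and SLC38A2 rose at 24 h, by 2.25 and 0.66, and SLC7A1 fell at 48 h by 0.61. With the block 5 of the 8 rose at 24 h and 1 (SLC1A4) at 48 h. Of 12 genes of RNA polymerase III, its initiation factors and its repressor MAF1, POLR3GL rose by 0.57 and POLR3K fell by 0.63 at 24 h, and POLR3D fell by 0.96 at 48 h. With the block 2 rose and 2 fell at 24 h, and 2 rose and 3 fell at 48 h, POLR3B and MAF1 among them at both times. The export receptor XPO5 fell by 0.41 at 24 h and had -0.30 at 48 h (adjusted p = 0.048 with the block), PSTK of the selenocysteine route rose by 0.60 at 48 h, and neither of 2 tested tRNA editing genes passed.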

How the data were processed

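Total RNA from 12 HK-2 cultures was measured on Affymetrix arrays of 54675 probe sets. The deposited values are log2 expression values made by the authors with GCRMA, per the submitters' processing notes. The sources used here give neither its version nor which arrays were normalised together. That the base of the logarithm is 2 was taken from the range, 0.77 to 16.1. Probe sets were named from the platform annotation: 41097 carried 1 symbol, 1801 carried several, and the table did not list 11777. Probe sets brighter than 4 on the log2 scale in 3 arrays or more were kept, and each gene was read from its brightest probe set, which left 10907 genes.

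The tests used limma 3.58.1 (R 4.3.3), with lmFit on 4 group means, all 12 arrays and eBayes. The p-values were adjusted after Benjamini and Hochberg across the 10907 genes, with calls under 0.05. Nnm was compared with control at each time, the 2 changes were averaged and subtracted, and 48 h was compared with 24 h within each treatment. The script was tested on simulated data. Values in every array are given for the called members with the smallest p, up to 10 cytosolic and 8 mitochondrial. The members and lists were chosen with earlier results of these data known. The members had 67 single-gene probe sets, 53 of them kept. Of 15 members with more than 1 kept, all probe sets had the same sign in 11 at 24 h and 12 at 48 h, the exceptions being AARS2, CARS1, LARS1 and YARS1 (24 h) and FARS2, LARS1 and YARS1 (48 h).

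Arrays with the same replicate number in the labels varied together: residual correlations were 0.34 to 0.512 within a number and time. Between numbers they were -0.796 to 0.119. Residuals were taken from group means and sum to 0 in each group. Correlations between numbers are thereby drawn below 0, so their range does not show pairing by itself. The main test was unblocked, and the blocked value stands beside a member's result where it changes the call, and for the other gene lists as counts with examples. Promoters came from RefSeq tables of GRCh38.p14. Python 3.11.15 with matplotlib 3.10.9 made the plots.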

Additional observations from a re-analysis of the deposited data

How the results depend on the processing

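The number of members that fell moved between settings, and 0 members rose in any setting run for the counts at 24 h, at 48 h and for the mean. At 24 h (7) it was 3 without the filter and 11 with the second brightest probe set of the members that had more than 1 kept. It was 19 with array weights, 16 with the replicate block and 14 with the block within each time. With the groups fitted alone it was 3, without both Nnm replicate 2 arrays it was 15, and with 1 array left out it was 3 to 11. At 48 h (6) it was 13 with array weights, 16 with the replicate block, 10 with the block within each time, 2 with the groups alone, 14 without both Nnm replicate 2 arrays and 2 to 10 with 1 array left out. The mean of both times (19) gave 14 to 20 with 1 array left out. The block gave 1 member for the control times (HARS1) and array weights gave 1 for the Nnm times. Fewer arrays in the fit (groups alone, 1 array left out) and more genes tested (no filter) are part of the construction of those settings, and the cause of the other shifts was not tested. In most of these settings the count of all genes called moved alike. At 24 h (2116) it was 1272 without the filter, 4864 with array weights, 4237 with the block, 3328 with the block within each time and 837 with the groups alone. At 48 h (1504) it was 3468 with array weights, 3515 with the block, 2513 with the block within each time and 514 with the groups alone. The second probe set was taken for members only, and the count of all genes called at 24 h was then 2120.

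With each of the 12 arrays left out in turn, WARS1, SARS2 and HARS1 still passed at 24 h, WARS1 and SARS2 at 48 h, and 14 of 19 members for the mean. At 24 h FARSA, MARS2 and VARS1 no longer passed without replicate 1 or 3 of either 24 h group, and FARSA also without Nnm replicate 2, with adjusted p up to 0.136, 0.0819 and 0.0998. FARSB passed in 3 of 12 (up to 0.133). At 48 h HARS1 and IARS1 were lost without Nnm replicate 1 or 3 or any 48 h control, NARS1 without Nnm replicate 1 or 3 or control replicate 1 or 2, and EPRS1 passed in 3 of 12, with p up to 0.11, 0.101, 0.0741 and 0.135. For the mean EPRS1, NARS2, TARS1, VARS2 and YARS1 passed in 6, 5, 5, 4 and 5 of 12. The mean change of YARS1 turned to 0.25 (adjusted p = 0.425) with its second probe set. Among 64 member results that did not pass, 19 changed sign in some setting. The groups alone were not run for the mean and the difference, nor the block within each time for the time comparisons.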
